A study of Homo sapiens with 5 samples.

Results

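CITED2 is a transcriptional cofactor that has no DNA-binding domain of its own, and the genes described here are CITED2 with its relatives, the coactivators it binds and the factors that share or use them. The members were CITED1, CITED2, CITED4, EP300, CREBBP, HIF1A, VEGFA, TFAP2A and TFAP2C, and all probe sets annotated to these 9 of the 19775 genes named on the array were taken, which gave 21 of 54675 probe sets. The set was chosen by the signal of CITED2, which was lower in PRL-1-overexpressing cells on these same arrays, and its partners were added around it. Every comparison of member signals between the groups is therefore a description and not a test of the members. HEK293, a line from human embryonic kidney, stably carried either a PRL-1 (PTP4A1) construct in pcDNA4 (HEK293-PRL-1, 2 arrays) or the empty pcDNA4 vector (HEK293-vector, 3 arrays). RNA from separate cultures was hybridized to GeneChip HG-U133 Plus 2.0 arrays, and per the methods a further PRL-1 array was left out after qRT-PCR showed no raised PRL-1. Each group is a single stable line, so what the transgene does and how the 2 lines differ otherwise cannot be told apart, and errors and p-values reflect only the spread between cultures of a line.

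CITED2 binds the CH1 domain of CBP and p300 with high affinity and competes there with the HIF-1α activation domain, which lowers the output of hypoxia-inducible factor. CITED2 is itself induced by hypoxia in several cell types, which closes a feedback loop. CITED2 and CITED4 also bring CBP and p300 to AP-2 factors and so act as coactivators of AP-2 target genes.

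The PTP4A1 transcript was measured by 4 probe sets, whose log2 fold changes in HEK293-PRL-1 over HEK293-vector cells lay between 0.06 and 0.15 and were not called. The sources used here do not state which part of the transcript they cover, and "PRL-1 array" below means an array labelled PRL-1. The paper states that raised PRL-1 mRNA and protein had been found in this line in earlier work. Of the 5 arrays, vector replicate 3 was the least like the others, with correlations of log2 signal from 0.938 to 0.947 against 0.954 to 0.964 among the rest, and a median signal of 166 against 124 to 143. Of 4 marker genes for HEK293, NEFL, LIN28B and PAX2 were measured above a signal of 100 on every array, whereas NEFM lay below 100 on all 5. Markers of other cell types reached the signal filter for 4 of 6 fibroblast, 1 of 5 leukocyte and 1 of 4 endothelial genes, none with a called probe set, while PDGFRB, PTPRC, ITGB2, CDH5 and TEK lay below 100 on all arrays.

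Promoter sequence from RefSeq (GRCh38.p14) was found for 7 of the 9 members, in 14 windows, one for each annotated start. The 250 bases before the first start are shown for CITED2, CITED4 and TFAP2A, so that the letters of the HIF and AP-2 sites can be read. In each, the groups did not overlap in at least 1 probe set (CITED4 and TFAP2A were not called). The same held for EP300 and HIF1A, whose windows are not shown, and for VEGFA, which had no window. None of these was called. Capitals mark the HIF core in the form ACGTG and the AP-2 site GCCNNNGGC, searched on both strands. The form GCGTG was not searched for, so HIF core here means ACGTG alone. CITED2 is on the minus strand at chr6:139374649-139374898, CITED4 on the minus strand at chr1:40862364-40862613 and TFAP2A on the minus strand at chr6:10419660-10419909.
CITED2: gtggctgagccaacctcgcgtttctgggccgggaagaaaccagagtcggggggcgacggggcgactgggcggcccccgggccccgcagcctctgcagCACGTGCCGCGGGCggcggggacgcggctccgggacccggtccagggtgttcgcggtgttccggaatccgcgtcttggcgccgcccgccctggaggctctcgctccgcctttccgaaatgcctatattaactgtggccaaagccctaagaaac
CITED4: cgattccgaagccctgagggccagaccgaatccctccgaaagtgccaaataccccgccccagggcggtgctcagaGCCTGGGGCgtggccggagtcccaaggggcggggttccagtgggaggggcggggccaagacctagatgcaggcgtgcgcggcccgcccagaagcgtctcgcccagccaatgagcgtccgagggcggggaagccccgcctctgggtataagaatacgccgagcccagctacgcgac
TFAP2A: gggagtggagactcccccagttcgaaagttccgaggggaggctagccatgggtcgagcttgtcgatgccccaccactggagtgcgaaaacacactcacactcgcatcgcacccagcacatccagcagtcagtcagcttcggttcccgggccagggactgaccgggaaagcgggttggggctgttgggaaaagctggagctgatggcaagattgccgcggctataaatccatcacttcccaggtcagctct
The CITED2 window held the palindrome CACGTG at positions -153 to -148, counted from the start site, which is the HIF core read on both strands. An AP-2 match at positions -148 to -140 overlapped it by 1 base. The CITED4 window held 1 AP-2 match at positions -175 to -167 and no HIF core of the form ACGTG, and the TFAP2A window held neither. Among all 35116 windows of 250 bases, 18.5% held the HIF core and 19.8% the AP-2 site, so both motifs are common. Of the other member windows, the second window of CITED1 held 1 HIF core and the second of CREBBP 2 AP-2 matches, and none was found in those of EP300 and HIF1A.

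Of the 21 member probe sets, 17 passed the filter of a MAS5 signal of at least 100 on at least 2 arrays, and the other 4 had signals between 10.1 and 92.4. A call means a Benjamini-Hochberg adjusted p at or below 0.05 in a fit of all 33818 probe sets that passed. Among the members 2 probe sets were called, both lower and both of CITED2, where 0.133% of all tested probe sets were called lower, 0.0591% higher and 0.192% in either direction. Since CITED2 was taken for this difference, nothing is read from that count. The groups did not overlap for 8 member probe sets, 4 higher and 4 lower on PRL-1 arrays, against 28.9% of all tested probe sets. Both CITED2 probe sets are among the 4 lower, as is that of CITED4, which passed the filter through the vector arrays alone. Nothing is therefore read from this count either. The median log2 fold change was -0.09 over the 17 member probe sets and -0.04 over all tested ones.

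**Figure D1:**
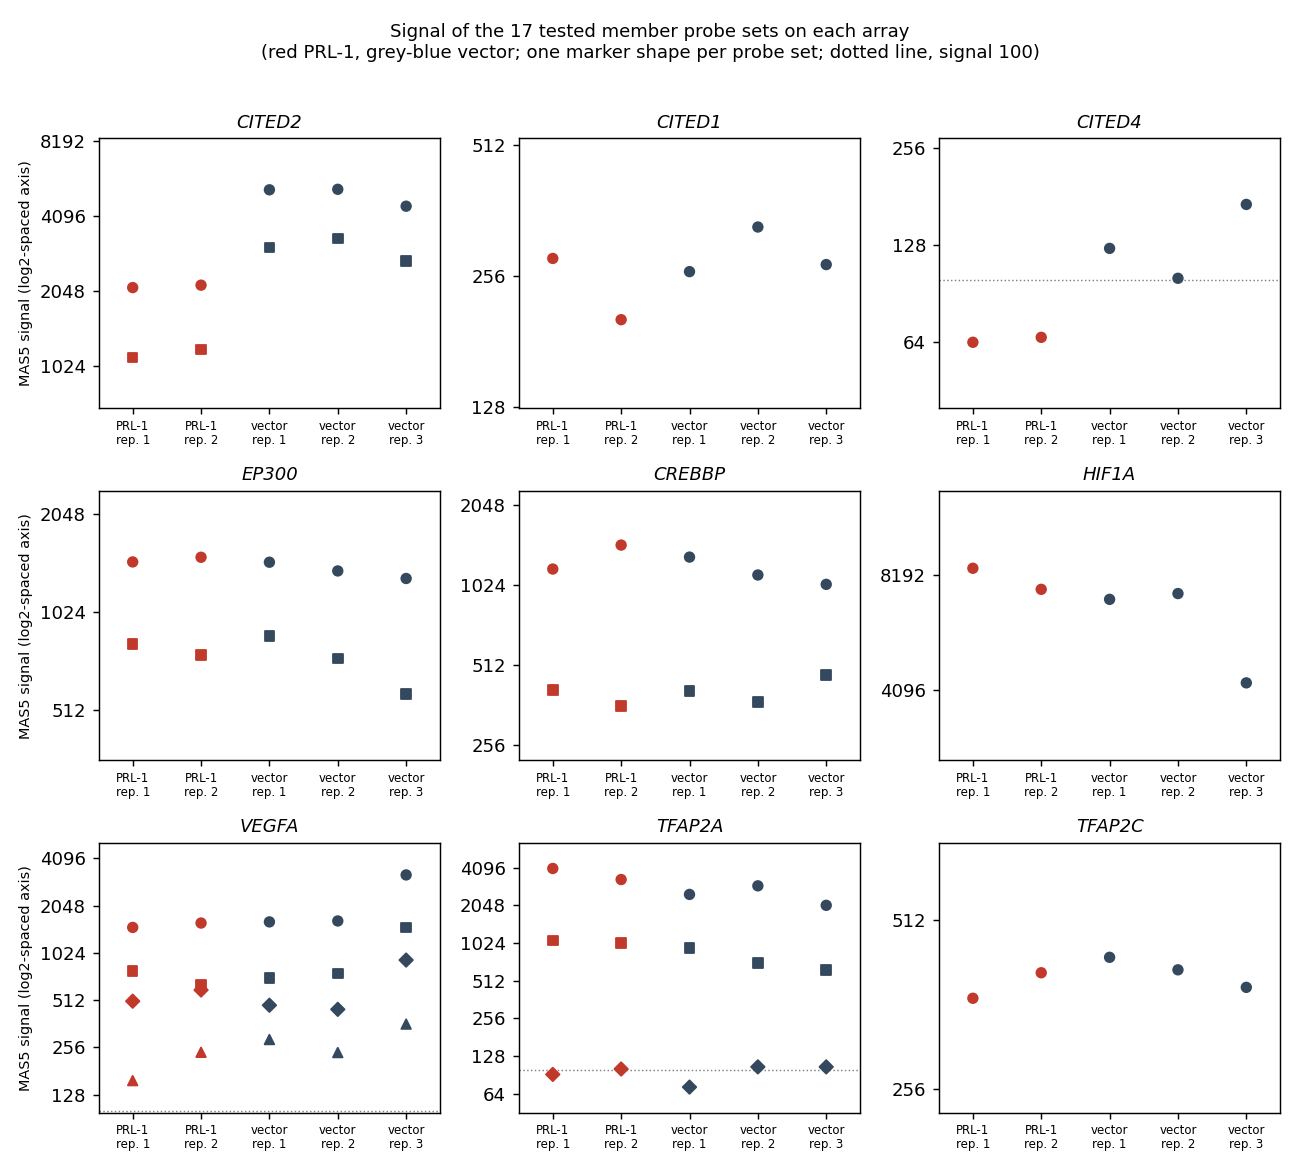
Deposited MAS5 signal (y axis, log2-spaced and set for each gene) of the 17 tested member probe sets on the 2 PRL-1 arrays (red) and the 3 vector arrays (grey-blue), with one marker shape per probe set. Both CITED2 probe sets lie lower on the PRL-1 arrays, whereas the VEGFA probe sets are highest and HIF1A is lowest on vector replicate 3.

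CITED2 was lower in HEK293-PRL-1 cells by both of its bright probe sets. Its brighter probe set had signals of 2110 and 2158 on PRL-1 arrays and 5214, 5238 and 4480 on vector arrays. The groups did not overlap, and the highest PRL-1 array was below the lowest vector array by more than the spread within either group. The log2 fold change was -1.22 ± 0.12 (SE), or 2.33-fold lower. Its second probe set had signals of 1106 and 1191 on PRL-1 arrays and 3058, 3327 and 2693 on vector arrays, a log2 fold change of -1.39 ± 0.13 (SE). Both probe sets read the same transcripts and are not separate evidence, and their patterns over the 5 arrays differed by a root mean square of 0.097 on the log2 scale. Within the vector group both were lowest on replicate 3, and without that array the log2 fold changes were -1.29 and -1.47. The remaining probe set, 227287_at, lay between 10.1 and 17.2 on all arrays and did not pass the filter. In these bulk samples, less CITED2 RNA per cell and fewer cells that express it cannot be told apart. Ordered by fold change, the CITED2 probe sets were 29th and 37th among the 45 probe sets called lower.

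The call on CITED2 needed both PRL-1 arrays. Without PRL-1 replicate 1 the log2 fold changes of the brighter and the second probe set were -1.20 and -1.34, with adjusted p = 0.175 and 0.171 by limma, and without PRL-1 replicate 2 they were -1.23 and -1.45, with adjusted p = 0.148 and 0.109. Each of these fits leaves 1 PRL-1 array, which is assumed to vary like the vector arrays.

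**Figure D2:**
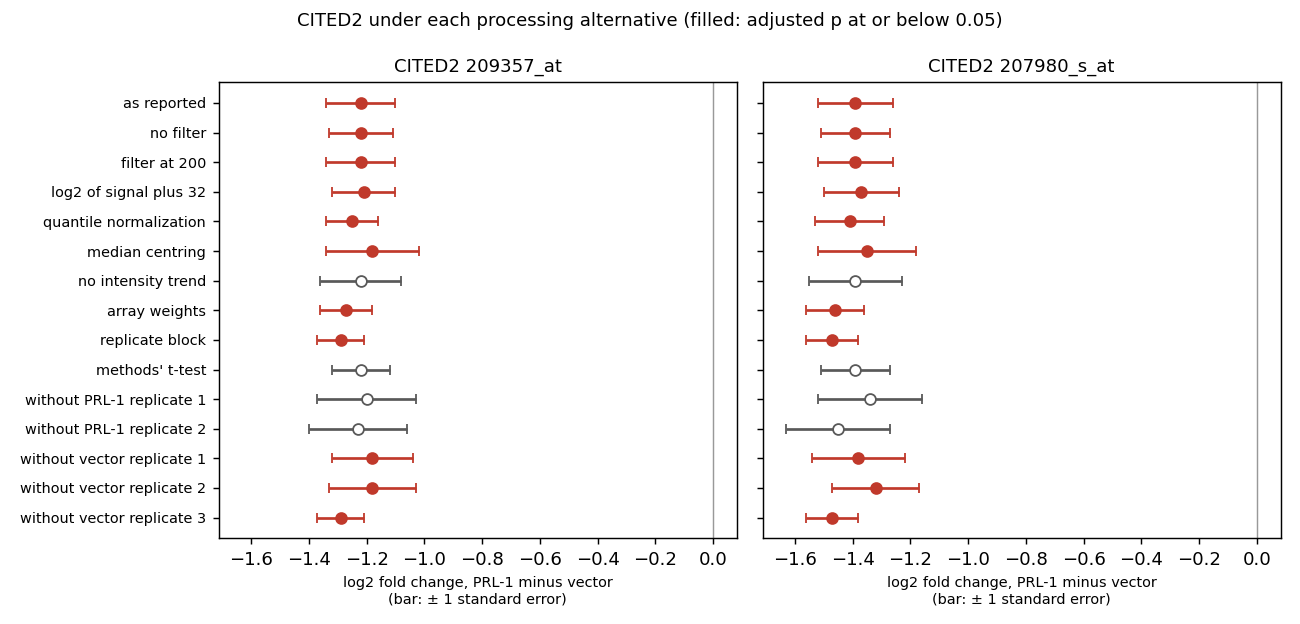
Log2 fold change of the 2 CITED2 probe sets, PRL-1 minus vector (x axis, bars ± 1 standard error), under each processing alternative (y axis), filled where the adjusted p is at or below 0.05. The fold changes stay between -1.29 and -1.18 for the brighter probe set (left) and between -1.47 and -1.32 for the second (right), while the call is lost without either PRL-1 array, without an intensity trend and with the methods' t-test.

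CITED4, which like CITED2 binds CBP and p300, was dim. Its probe set 228625_at had signals of 64.0 and 66.3 on PRL-1 arrays and 125, 101 and 171 on vector arrays, so the groups did not overlap and both PRL-1 signals lay below 100. With the PRL-1 arrays set to 100, CITED4 was at least 1.29-fold lower in HEK293-PRL-1 cells, a bound that leaves out the spread between arrays. On the signals as deposited, the 95% interval of its log2 fold change was -1.99 to 0.01. CITED4 was not called, and since it passed the filter through the vector arrays alone, it could pass only with this sign. CITED1, the family member best known from melanocytes and the developing kidney, had signals of 281 and 203 on PRL-1 arrays and 262, 332 and 272 on vector arrays with probe set 207144_s_at. The groups overlapped, and the log2 fold change was -0.27 ± 0.23 (SE).

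EP300 encodes p300, the lysine acetyltransferase for which CITED2 and HIF-1α compete. Probe set 202221_s_at had signals of 1460 and 1509 on PRL-1 arrays and 1457, 1370 and 1299 on vector arrays. These groups did not overlap, but the lowest PRL-1 signal was almost that of vector replicate 1, and the log2 fold change was 0.11 ± 0.12 (SE). The second probe set, 213579_s_at, had signals of 819 and 756 on PRL-1 arrays and 867, 739 and 575 on vector arrays. Its groups overlapped, with a log2 fold change of 0.13 ± 0.18 (SE) that became -0.02 without vector replicate 3. The 95% intervals were -0.15 to 0.38 and -0.28 to 0.55 on the log2 scale, which leaves room for changes of either sign.

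CREBBP encodes CBP, the close relative of p300. Probe set 202160_at had signals of 1177 and 1448 on PRL-1 arrays and 1305, 1118 and 1031 on vector arrays, a log2 fold change of 0.19 ± 0.15 (SE). Probe set 228177_at had signals of 413 and 360 on PRL-1 arrays and 410, 373 and 471 on vector arrays, a log2 fold change of -0.11 ± 0.18 (SE). The groups overlapped for both and the signs differed, so no direction can be given for CREBBP. Its other probe sets, 211808_s_at and 235858_at, stayed below 100 on all arrays.

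HIF1A, which encodes the oxygen-regulated subunit of HIF-1, had signals of 8546 and 7522 on PRL-1 arrays and 7079, 7332 and 4268 on vector arrays. The PRL-1 arrays were higher with no overlap, although PRL-1 replicate 2 was close to vector replicates 1 and 2. The log2 fold change was 0.41 ± 0.22 (SE) and was not called. Vector replicate 3 had a 1.69-fold lower signal than the mean of the other vector arrays, and without it the log2 fold change was 0.15. By qRT-PCR on other cultures of these lines, the paper reports HIF1A RNA as significantly higher in HEK293-PRL-1 cells. The fold it gives is far larger than the 1.33-fold of these arrays, so the sizes differ although the direction is the same. Why they differ was not tested. HIF-1α is controlled mainly through protein stability, which these arrays do not measure.

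VEGFA, the endothelial growth factor that is a classic HIF target, was read by 4 probe sets. Probe set 210512_s_at had signals of 1489 and 1588 on PRL-1 arrays and 1615, 1637 and 3218 on vector arrays, and 212171_x_at had 787 and 646 on PRL-1 arrays and 708, 756 and 1491 on vector arrays. Probe set 210513_s_at had signals of 504 and 594 on PRL-1 arrays and 475, 447 and 922 on vector arrays, and 211527_x_at had 157 and 238 on PRL-1 arrays and 287, 237 and 360 on vector arrays. All 4 probe sets were highest on vector replicate 3, by 1.98-, 2.04-, 2.00- and 1.38-fold over the mean of the other vector arrays in the order given, and 38.5% of all tested probe sets were highest on that array. The groups overlapped for all but 210512_s_at. The log2 fold changes were -0.41 ± 0.27, -0.38 ± 0.29, -0.09 ± 0.29 and -0.59 ± 0.27 (SE), and none was called. Without vector replicate 3 they were -0.08, -0.04, 0.25 and -0.44, so the sign of 210513_s_at turned. Both probe sets with the suffix _x_at may cross-hybridize with other transcripts.

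HIF1A and VEGFA thus lay at opposite ends on vector replicate 3. The summed markers of all 3 other cell types were highest and those of HEK293 lowest on that array too. The endothelial sum was 425 and 443 on PRL-1 arrays and 516, 500 and 795 on vector arrays, the fibroblast sum 1384 and 1740 on PRL-1 arrays and 1520, 1510 and 1751 on vector arrays, and the leukocyte sum 310 and 313 on PRL-1 arrays and 378, 490 and 509 on vector arrays. The HEK293 sum was 37473 and 37005 on PRL-1 arrays and 35187, 39684 and 33822 on vector arrays. NEFL, at 28915 to 34190, made up most of the HEK293 sum, and PECAM1, at 355 to 615, most of the endothelial sum. The median signal was also highest on vector replicate 3, at 166 against 124 to 143. Whether other cells were present was not tested. The part of this array's overall difference in the HIF1A and VEGFA values was not tested.

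**Figure D3:**
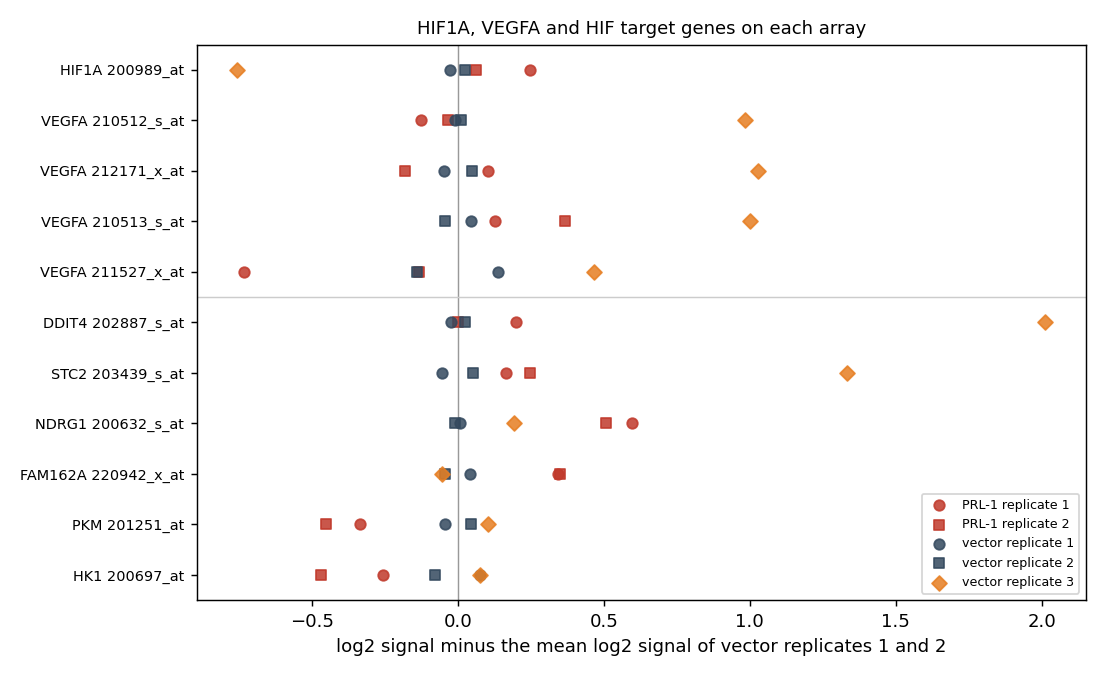
Log2 signal on each array minus the mean of vector replicates 1 and 2 (x axis) for HIF1A, the 4 VEGFA probe sets and 6 HIF target genes (y axis). Vector replicate 3 (orange) lies far to the right for 3 VEGFA probe sets, DDIT4 and STC2 and to the left for HIF1A, whereas NDRG1 and FAM162A are highest and PKM and HK1 lowest on the PRL-1 arrays (red).

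TFAP2A encodes AP-2α, a factor of neural crest and epithelial development that uses CITED2 as a coactivator. Probe set 204653_at had signals of 4040 and 3296 on PRL-1 arrays and 2506, 2935 and 2051 on vector arrays, a log2 fold change of 0.56 ± 0.17 (SE). Probe set 204654_s_at had signals of 1076 and 1023 on PRL-1 arrays and 933, 709 and 627 on vector arrays, a log2 fold change of 0.49 ± 0.18 (SE). Both were higher on both PRL-1 arrays than on any vector array, and neither was called. The vector arrays of both were lowest on replicate 3, and without it the log2 fold changes were 0.43 and 0.37. The dim probe set 210669_at lay between 72.4 and 105 with overlapping groups.

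TFAP2C, which encodes AP-2γ, had signals of 371 and 412 on PRL-1 arrays and 439, 417 and 388 on vector arrays with probe set 205286_at. The groups overlapped, and the log2 fold change was -0.08 ± 0.16 (SE), with a 95% interval of -0.45 to 0.29. Its other probe set, 205287_s_at, had signals between 26.8 and 92.4 and did not pass the filter.

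**Figure D4:**
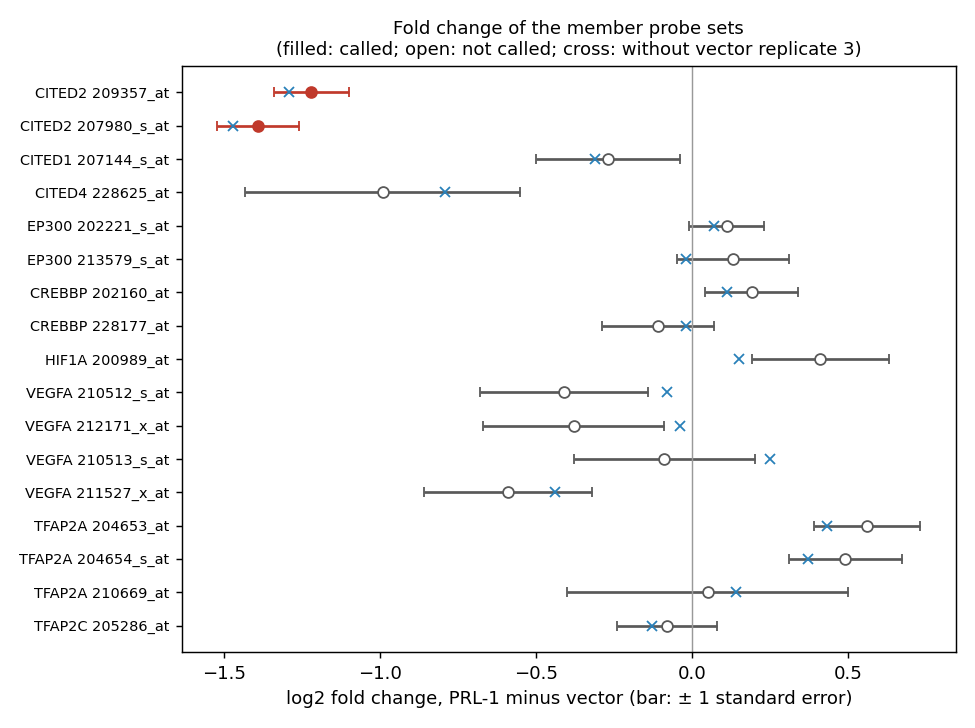
Log2 fold change, PRL-1 minus vector, of the 17 tested member probe sets (x axis, bars ± 1 standard error), with crosses for the fit without vector replicate 3. Only the CITED2 probe sets are filled as called, and the largest moves without vector replicate 3 are those of HIF1A and 3 VEGFA probe sets.

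The genes around the members were described by 8 lists with 151 genes, of which 125 were measured, each by its brightest tested probe set. Among the list genes given with values below, that probe set carries the suffix _x_at for JUN, FAM162A, PGF and KAT5. It does so for further list genes too, GAPDH and ALDOA among them. No list gene was called by limma, where 0.247% of 14546 genes were called. At an unadjusted p under 0.05 there were 9 higher and 8 lower list genes, where 11.4% of all genes passed, and the methods' t-test gave 17 at that level and 0 after adjustment. Of the 125 list genes, 22 were lower and 23 higher on PRL-1 arrays without overlap, against 17.2% lower and 13.8% higher of all genes. The median log2 fold change was -0.02 over the list genes and -0.03 over all genes. The lists are set against this background below, with values for the 4 genes of smallest adjusted p in each.

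Of 13 genes for HIF subunits, hydroxylases and the VHL complex, 12 were measured, with 6 fold changes above and 6 below 0 and a median of 0.02. ARNT, the partner of HIF-1α, had a log2 fold change of 0.29 ± 0.16 (SE, adjusted p = 0.615), but 4 further ARNT probe sets lay between -0.22 and -0.01. VHL, the recognition subunit of the ligase that degrades HIF-1α, and CUL2, its scaffold, had log2 fold changes of -0.32 ± 0.18 and -0.30 ± 0.15 (SE, adjusted p = 0.602 and 0.554). HIF3A, which encodes a further HIF-α subunit, had signals of 101 and 135 on PRL-1 arrays and 49.7, 29.8 and 7.72 on vector arrays, at least 1.17-fold higher with the vector arrays set to 100 (adjusted p = 0.557), and it passed the filter through the PRL-1 arrays alone. EGLN1, chosen after its values were seen, encodes PHD2, the main prolyl hydroxylase of HIF-1α. None of its 4 tested probe sets overlapped between the groups, all 4 being higher on PRL-1 arrays, where 12.8% of all tested probe sets were higher without overlap. The brightest, 223046_at, had signals of 4765 and 4426 on PRL-1 arrays and 4219, 4206 and 4328 on vector arrays, and 224314_s_at had 655 and 678 on PRL-1 arrays and 387, 441 and 406 on vector arrays. The log2 fold changes of these probe sets were 0.11 and 0.70, with adjusted p = 0.764 and 0.201. Of the others, 221497_x_at had a log2 fold change of 0.31, and 223045_at, with signals of 126 and 105 on PRL-1 arrays and 8.75, 18.4 and 17.5 on vector arrays, passed the filter through the PRL-1 arrays alone.

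Of 22 HIF targets of glucose uptake and glycolysis, 21 were measured, with 6 fold changes above and 15 below 0 and a median of -0.08. No gene was called, and 2 had an unadjusted p under 0.05 by limma, both lower, where 11.4% of all genes passed. PKM, the pyruvate kinase of most proliferating cells, had signals of 13906 and 12842 on PRL-1 arrays and 17006, 18107 and 18845 on vector arrays, a log2 fold change of -0.43 ± 0.11 (SE, adjusted p = 0.279). HK1, a hexokinase, had 3072 and 2652 on PRL-1 arrays and 3870, 3474 and 3864 on vector arrays, a log2 fold change of -0.39 ± 0.12 (SE, adjusted p = 0.348). HK2 and PFKP had log2 fold changes of -0.23 ± 0.12 and -0.20 ± 0.11 (SE, adjusted p = 0.564 and 0.597), while further probe sets, HK2 239410_at and PFKP 240202_x_at, had overlapping groups and log2 fold changes of 0.13 and 0.05. The groups also overlapped for PKM 213700_s_at, with a log2 fold change of -0.18. Of the 21 genes, 5 were lower without overlap, these 4 among them, and 0 higher, against 17.2% lower and 13.8% higher of all genes.

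Of 32 other HIF targets, 27 were measured, with 16 fold changes above and 11 below 0 and a median of 0.05. At an unadjusted p under 0.05 by limma, 4 were higher and 2 lower, where 11.4% of all genes passed. NDRG1, a stress-responsive HIF target, had signals of 7566 and 7115 on PRL-1 arrays and 5038, 4975 and 5718 on vector arrays, a log2 fold change of 0.49 ± 0.11 (SE, adjusted p = 0.232). Without vector replicate 3 it was called, with a log2 fold change of 0.55 and adjusted p = 0.0236, beside 0.784% of all probe sets called in that fit. TFRC, the transferrin receptor, and FAM162A, a mitochondrial protein, had log2 fold changes of 0.41 ± 0.12 and 0.36 ± 0.10 (SE, adjusted p = 0.319 and 0.306), and TGFA, a ligand of the EGF receptor, had -0.74 ± 0.21 (SE, adjusted p = 0.301). Further probe sets, TGFA 211258_s_at and FAM162A 221533_at, had overlapping groups and log2 fold changes of -0.08 and 0.12. Classic HIF targets therefore lay on both sides of 0 and were not called in either direction.

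Some HIF targets followed VEGFA on vector replicate 3, and the 3 named next were chosen after their values were seen. DDIT4, an inhibitor of mTORC1 signalling, had signals of 3488 and 3043 on PRL-1 arrays and 2991, 3090 and 12256 on vector arrays. STC2, a secreted glycoprotein, had 661 and 700 on PRL-1 arrays and 569, 612 and 1485 on vector arrays, and HMOX1, the inducible heme oxygenase, had 361 and 322 on PRL-1 arrays and 362, 302 and 731 on vector arrays. In each case vector replicate 3 alone was high, by 4.03-, 2.52- and 2.21-fold over the mean of the other vector arrays. ADM, a hypoxia-induced peptide hormone also chosen after its values were seen, had 890 and 778 on PRL-1 arrays and 650, 801 and 734 on vector arrays, with no such peak. In all, 12 of the 27 other HIF targets and 12 of the 21 glycolytic targets were highest on vector replicate 3, against 37.5% of all genes. The same held for 7 of 16 coactivators, 6 of 13 CITED2 partners, 4 of 5 AP-2 regulators and 3 of 7 VEGF genes. It held for 6 of 24 CBP and p300 binding factors and 2 of 12 HIF subunits and hydroxylases, and for 52 of the 125 list genes together. A peak on this array was thus not particular to HIF targets.

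**Figure D5:**
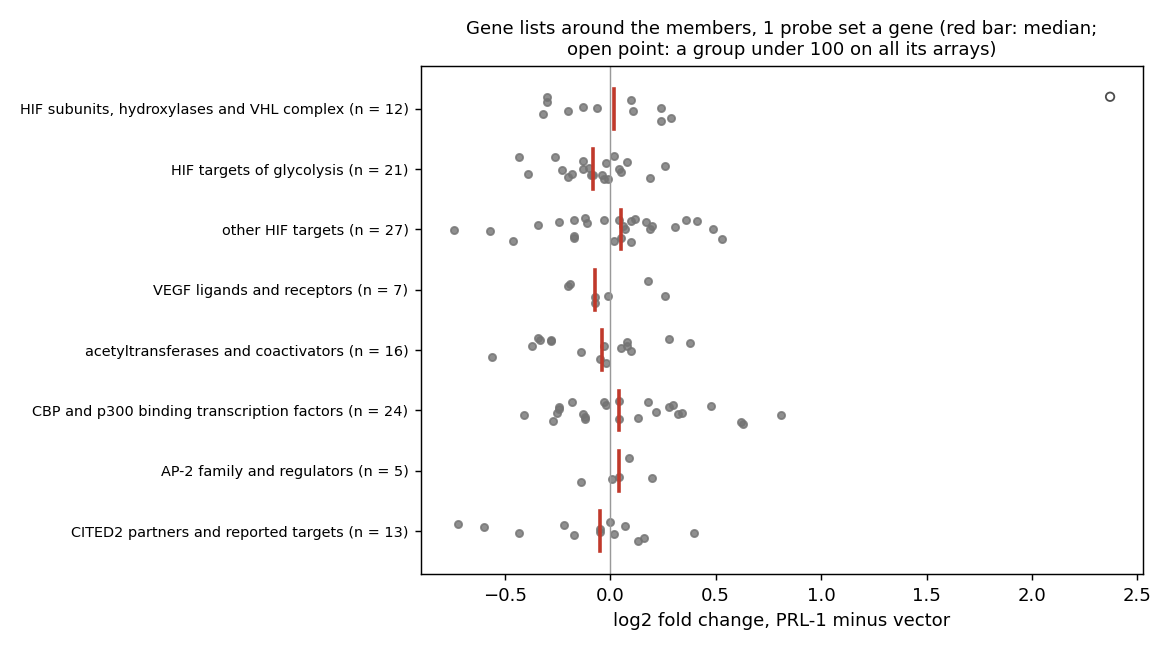
Log2 fold change, PRL-1 minus vector (x axis), of the measured genes of 8 lists (y axis, 1 probe set a gene), with the median of each list as a red bar. The medians lie between -0.08 and 0.05, and the open point far to the right is HIF3A, whose vector arrays were all below a signal of 100.

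Of 9 VEGF ligands and receptors other than VEGFA, 7 were measured, 2 with fold changes above and 5 below 0 and a median of -0.07. The ligands VEGFB and PGF had log2 fold changes of 0.26 ± 0.27 and -0.20 ± 0.20 (SE), and the receptors FLT1 and FLT4 had -0.19 ± 0.20 and 0.18 ± 0.19 (SE), with adjusted p between 0.775 and 0.802. Other probe sets of PGF, FLT1 and FLT4 had log2 fold changes of the opposite sign, 0.25 for 209652_s_at, 0.53 for 226498_at and -0.25 for 229902_at. The brightest PGF probe set, 215179_x_at, shared the peak of VEGFA on vector replicate 3, with signals of 2146 and 2411 on PRL-1 arrays and 2095, 2465 and 3469 on vector arrays. The dimmer PGF 209652_s_at had no such peak, with 139 and 68.6 on PRL-1 arrays and 71, 105 and 75.6 on vector arrays. None of the 7 genes had an unadjusted p under 0.05.

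Of 17 acetyltransferases and coactivators that work beside CBP and p300, 16 were measured, 6 with fold changes above and 10 below 0 and a median of -0.04. CARM1, an arginine methyltransferase that modifies CBP and p300, had signals of 1921 and 1745 on PRL-1 arrays and 2541, 2375 and 2208 on vector arrays, a log2 fold change of -0.37 ± 0.12 (SE, adjusted p = 0.370). KAT5, KAT7 and CRTC3 had log2 fold changes of -0.34 ± 0.13, -0.28 ± 0.13 and -0.33 ± 0.16 (SE, adjusted p = 0.453, 0.540 and 0.551). KAT5 and KAT7 are acetyltransferases of other families than CBP, and CRTC3 is a coactivator of CREB. Of the 16 genes, 6 were lower without overlap, these 4 among them, and 2 higher, against 17.2% lower and 13.8% higher of all genes. None of the 16 was called. Further probe sets of KAT5 (206689_x_at) and CRTC3 (232879_at) had overlapping groups, with log2 fold changes of -0.05 and -0.08.

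Of 30 transcription factors that recruit CBP or p300, 24 were measured, 13 with fold changes above and 11 below 0 and a median of 0.04. JUN, a subunit of AP-1, had signals of 11423 and 8817 on PRL-1 arrays and 6010, 7311 and 6329 on vector arrays, a log2 fold change of 0.62 ± 0.14 (SE, adjusted p = 0.235). STAT6, which acts in cytokine signalling, and ETS1, an ETS-family factor, had log2 fold changes of 0.81 ± 0.33 and 0.63 ± 0.28 (SE, adjusted p = 0.481 and 0.507), and SMAD4, the common partner of receptor-activated SMADs, had -0.27 ± 0.10 (SE, adjusted p = 0.454). Of the 24 genes, 9 were higher and 4 lower without overlap, these 4 among them, against 13.8% higher and 17.2% lower of all genes. At an unadjusted p under 0.05 by limma, 4 genes of the list were higher and 1 lower, where 11.4% of all genes passed. Further probe sets of JUN (213281_at), ETS1 (214447_at) and SMAD4 (202526_at and 1565703_at) had overlapping groups. Their log2 fold changes were 0.23, 0.36, -0.12 and -0.17.

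Of 9 other AP-2 factors and AP-2 regulators, 5 were measured, 4 with fold changes above and 1 below 0 and a median of 0.04. KCTD15 and KCTD1, which inhibit AP-2α, had log2 fold changes of 0.20 ± 0.14 and 0.09 ± 0.15 (SE, adjusted p = 0.686 and 0.875). YEATS4 and WWOX, which bind AP-2 proteins, had -0.14 ± 0.12 and 0.04 ± 0.23 (SE, adjusted p = 0.736 and 0.971). The groups overlapped for the probe sets of these 4 genes given here. Probe sets disagreed for KCTD1, where 226245_at and 236057_at had log2 fold changes of -0.33 and -0.45 with groups that did not overlap, and further probe sets of KCTD15 and WWOX lay on both sides of 0.

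Of 19 CITED2 partners and genes reported to depend on CITED2 or AP-2, 13 were measured, 6 with fold changes above and 7 below 0 and a median of -0.05. ISL1, a LIM-homeodomain factor that CITED2 supports in mouse cardiac differentiation, had signals of 424 and 440 on PRL-1 arrays and 694, 681 and 592 on vector arrays, a log2 fold change of -0.60 ± 0.15 (SE, adjusted p = 0.266). LHX2, a LIM-homeodomain factor that uses CITED2 as a coactivator, had 591 and 614 on PRL-1 arrays and 484, 437 and 453 on vector arrays, a log2 fold change of 0.40 ± 0.15 (SE, adjusted p = 0.434). The groups did not overlap for these probe sets of ISL1 and LHX2, which lay on opposite sides of 0. Those of another LHX2 probe set, 211219_s_at, overlapped, with a log2 fold change of 0.39. NODAL, a TGF-β ligand, and ERBB2, a receptor whose gene AP-2 factors activate, had log2 fold changes of -0.72 ± 0.41 and -0.22 ± 0.14 (SE, adjusted p = 0.623 and 0.669). The other NODAL probe set, 220689_at, had a log2 fold change of 0.69 ± 0.50 (SE), so no direction can be given for NODAL.

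The genes whose pattern over the 5 arrays came closest to that of the brighter CITED2 probe set were sought among 14537 genes outside the members, by the root mean square difference of log2 signals centred on each gene's mean. They were TWIST1 with 0.035, ZNF503 with 0.040, ITGB8-AS1 with 0.078 and EFR3A with 0.090. TWIST1, a basic helix-loop-helix factor of mesenchymal cells, had signals of 168 and 172 on PRL-1 arrays and 395, 403 and 337 on vector arrays. ZNF503, a zinc-finger repressor, had 3879 and 3976 on PRL-1 arrays and 10303, 10102 and 8524 on vector arrays, and EFR3A, a scaffold of the plasma membrane, had 541 and 528 on PRL-1 arrays and 1177, 1277 and 1221 on vector arrays. ITGB8-AS1 was below 100 on both PRL-1 arrays and passed the filter through the vector arrays alone. By limma, ZNF503 and EFR3A were called lower (adjusted p = 0.00589 and 0.00926), whereas TWIST1 and ITGB8-AS1 were not called (adjusted p = 0.0929 and 0.301). The likeness is a description over 5 arrays of which 2 share the PRL-1 line, and most of it is the difference between the groups.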

How the data were processed

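Gene expression was measured in 5 cultures of stably transfected HEK293 cells, 2 labelled PRL-1 and 3 labelled vector. The deposited values are MAS5 signals, linear intensity values per probe set that the authors computed with affy at default settings, scaled so that every array has a mean of 500 once 2% is trimmed from each end. MAS5 subtracts mismatch probes, which makes signals below 100 imprecise. Read depth has no meaning here, and precision is limited by how few arrays there are.

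Control probe sets (62) were left out, and 33818 probe sets with a signal of 100 or more on 2 or more arrays were tested. The log2 of the deposited signals was modelled by group alone in limma (version 3.58.1, under R 4.3.3), using lmFit and eBayes with trend, and with Benjamini-Hochberg adjustment over all tested probe sets. The script was tested on simulated data. Where all arrays of a group lay below 100, that group was set to 100 and a fold written as at least N-fold. The array annotation was brought to current symbols of the GRCh38.p14 annotation by gene identifier, and it gave 41091 probe sets 1 symbol, 1801 several and 11721 none. No member symbol stood on a probe set with several.

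Members and gene lists were chosen with earlier results of these data known. All members are named, with up to 4 measured genes per list by smallest adjusted p and the 4 genes whose pattern was most like that of CITED2. Each list gene was represented by whichever of its tested probe sets was brightest on average. Alternatives covered the filter, an offset of 32, quantile normalization, median centring, no intensity trend, array weights, a replicate block, leaving out each array, the methods' t-test and gene means. The methods' t-test was run with the signal filter and call threshold used here. The paper kept probe sets by MAS5 presence calls and listed them at a looser threshold, so the counts given here are not the paper's. Genes that the annotation used here does not list were not analysed here.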

Additional observations from a re-analysis of the deposited data

How the results depend on the processing

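The 2 called member probe sets, both of CITED2, were called again with no filter, a filter at 200, an offset of 32, quantile normalization, median centring, array weights and a replicate block, and 0 member probe sets were called without an intensity trend or with the methods' t-test. Leaving out 1 array gave between 0 and 2, the 0 arising when either PRL-1 array was left out, which leaves 1 in that group. Over the 14 alternatives the log2 fold change of the second probe set lay between -1.47 and -1.32 (adjusted p from 6.98e-05 to 0.299), and over 15 that of the brighter one between -1.31 and -1.18 (adjusted p from 0.00012 to 0.280), the mean of both probe sets counted under the brighter one. No other member probe set was called under any alternative. A change of sign between settings was counted as a reversal only for called values. The number of all probe sets called was 65, against 9 without an intensity trend, 275 with array weights, 448 with a replicate block, 0 with the methods' t-test (2905 at an unadjusted p under 0.05) and 11 to 253 when 1 array was left out, 253 being without vector replicate 3. The causes were not tested. Replicate numbers are shared by the labels but were not taken as pairs. The correlation of deviations from the group means was 0.064 for replicate 1 and -0.059 for replicate 2. With 2 PRL-1 arrays these deviations mirror each other, so the correlations cannot decide whether the samples were paired. The replicate block shows only how far calls move.

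List genes called numbered 0, against 2 with array weights and 2 with a replicate block (ISL1 among CITED2 partners and NDRG1 among other HIF targets, 1 each), 0 to 1 when 1 array was left out (NDRG1 among other HIF targets, without vector replicate 3) and 1 with the mean of a gene's tested probe sets (EGLN1 among HIF subunits and hydroxylases, log2 fold change 1.04, adjusted p = 0.0491, a mean that takes in 223045_at at 3.02 beside 0.11, 0.31 and 0.70). With 2 against 3 arrays small changes of HIF1A, VEGFA, EP300 and CREBBP could not be resolved, and their intervals hold both signs.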
